A study of Homo sapiens with 3 samples.

Results

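The mRNA levels of 42 genes of the autophagy and lysosome pathway, out of 19740 genes named on the array, were examined in Huh7 cells with and without chlorogenic acid (CA), a plant polyphenol. The members were listed by name, from the ULK kinases through the conjugation machinery to the lysosomal cathepsins, with no threshold on their values, and include ULK2, which the study had named from these arrays. A probe was taken as a member's when the transcript accession listed for it belonged to that gene. By this rule 41 members were represented by 61 probes in 79 spots, and NBR1 had no named probe. Huh7 is an established human hepatoma cell line, and all 3 groups were of this line. The groups were untreated cells and cells exposed for 24 h to CA at 50 μM or 100 μM, with 1 RNA sample and 1 Agilent one-colour array per group. The study's methods describe the solvent dimethyl sulfoxide as the reference for untreated cells, and the labels give this group no treatment and no time. Per the labels, cells were detached with trypsin and taken up in serum-free medium before RNA was isolated.

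Autophagy is the process by which a cell encloses part of its own cytoplasm in a double membrane, the autophagosome, and delivers it to the lysosome for digestion. The ULK kinase complex starts the process when mTORC1 no longer restrains it, a lipid kinase complex around BECN1 marks the site, and a conjugation system joins ATG8 family proteins to the growing membrane. In liver cells autophagy is known for its response to fasting and for the removal of damaged organelles, and TFEB and TFE3 switch on lysosomal and autophagy genes as a group. The comparisons ask which transcripts of this pathway differed between CA-treated and untreated cells, and between both doses.

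Since each group had 1 array, no test across samples was possible, and every difference below is a difference between arrays with no replicate check. Levels are given as relative signal, that is the processed signal of a probe in percent of the 75th percentile of its array (1059, 1207 and 1249 intensity units on the untreated, 50 μM and 100 μM arrays). Differences are log2 ratios of relative signals between arrays. Signals of different probes are not set against each other, since each probe binds with its own strength. The only error that could be measured was that between spots of 1 probe. Over the probes printed 10 times, the median SD of the log2 ratio between spots was 0.065 for 50 μM against untreated and 0.064 for 100 μM against untreated. It was 0.13 in the dimmest of 4 signal classes of equal size in both comparisons and 0.050 in the brightest. Of 10 hepatocyte and hepatoma markers, 8 were well above background on all 3 arrays. HNF4A was so on the 50 μM array only, and TF had no value on the untreated and 50 μM arrays and passed on the 100 μM array. The summed relative signal of the 8 markers was 369, 329 and 303 times the 75th percentile on the untreated, 50 μM and 100 μM arrays. The 3 markers each of leukocytes, endothelium and fibroblasts or stellate cells summed to between 0.0521 and 0.9 times on any array, and all 3 leukocyte and all 3 endothelial markers were above background throughout. The part of other cells in the results was not tested. Disturbed areas of an array, in which probes dim on the other arrays were bright, covered 0.139%, 0.0881% and 5.71% of gene spots, and they touched 1 member probe on the untreated array and 4 on the 100 μM array.

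Nearly all members were detected in Huh7 cells. On the untreated array all 41 members with a probe had at least 1 probe well above background, and on each CA array 40 of 41 did, compared with 75.8% to 76.4% of all named genes. The exception on both CA arrays was ULK2. Its detection on the untreated array rested on 1 spot in a disturbed area, and with such areas left out ULK2 was above background on no array. A ratio was formed where a probe was well above background on both arrays compared, which was the case for 40 members, each represented by its brightest such probe. The comparisons of both doses with untreated cells share the untreated array.

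No measured member differed by 2-fold or more in any comparison. For 50 μM against untreated, 0 of 40 members were at least 2-fold higher and 0 at least 2-fold lower, beside 0.463% and 0.517% of 14700 genes (68 and 76 genes, or 48 and 88 after quantile normalization). At 1.5-fold, 3 of 40 members were higher, namely the kinase ULK3, the adaptor ATG13 and the protease CTSD, and 0 were lower. Under quantile normalization, cyclic loess, median centring, normexp and the deposited table, CTSD alone was higher (1 of 40). Of all genes 4.15% were at least 1.5-fold higher and 2.17% at least 1.5-fold lower (610 and 319 genes, or 480 and 416 after centring on the median of measured probes). The share of members past 1.5-fold was thus near that of all genes. The median log2 ratio over members was 0.04, in a range from -0.51 for OPTN to 0.65 for CTSD, and 21 members were above 0 and 19 below. Over all genes the median was -0.04 and 43.7% were above 0.

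Ratios at 100 μM covered a narrower range. Of 40 members 0 were at least 2-fold higher or lower, beside 0.458% and 0.205% of 14640 genes. At 1.5-fold 0 members were higher or lower, beside 1.65% and 1.54% of all genes (242 and 226 genes, or 213 and 299 after quantile normalization). The log2 ratios ran from -0.24 for CTSB to 0.40 for ATG101 with a median of 0.01, against -0.03 over all genes, and 22 members were above 0. Between the doses, 0 of 40 members were 2-fold higher or lower on the 100 μM array than on the 50 μM array, beside 0.586% and 0.0886% of 14666 genes. None was 1.5-fold higher or lower, beside 1.4% and 1.54% (206 and 226 genes, or 256 and 158 after cyclic loess). In this comparison the members ran from -0.50 for CTSD to 0.34 for OPTN, the same genes that lay at the ends at 50 μM, and both comparisons use the 50 μM array.

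**Figure D1:**
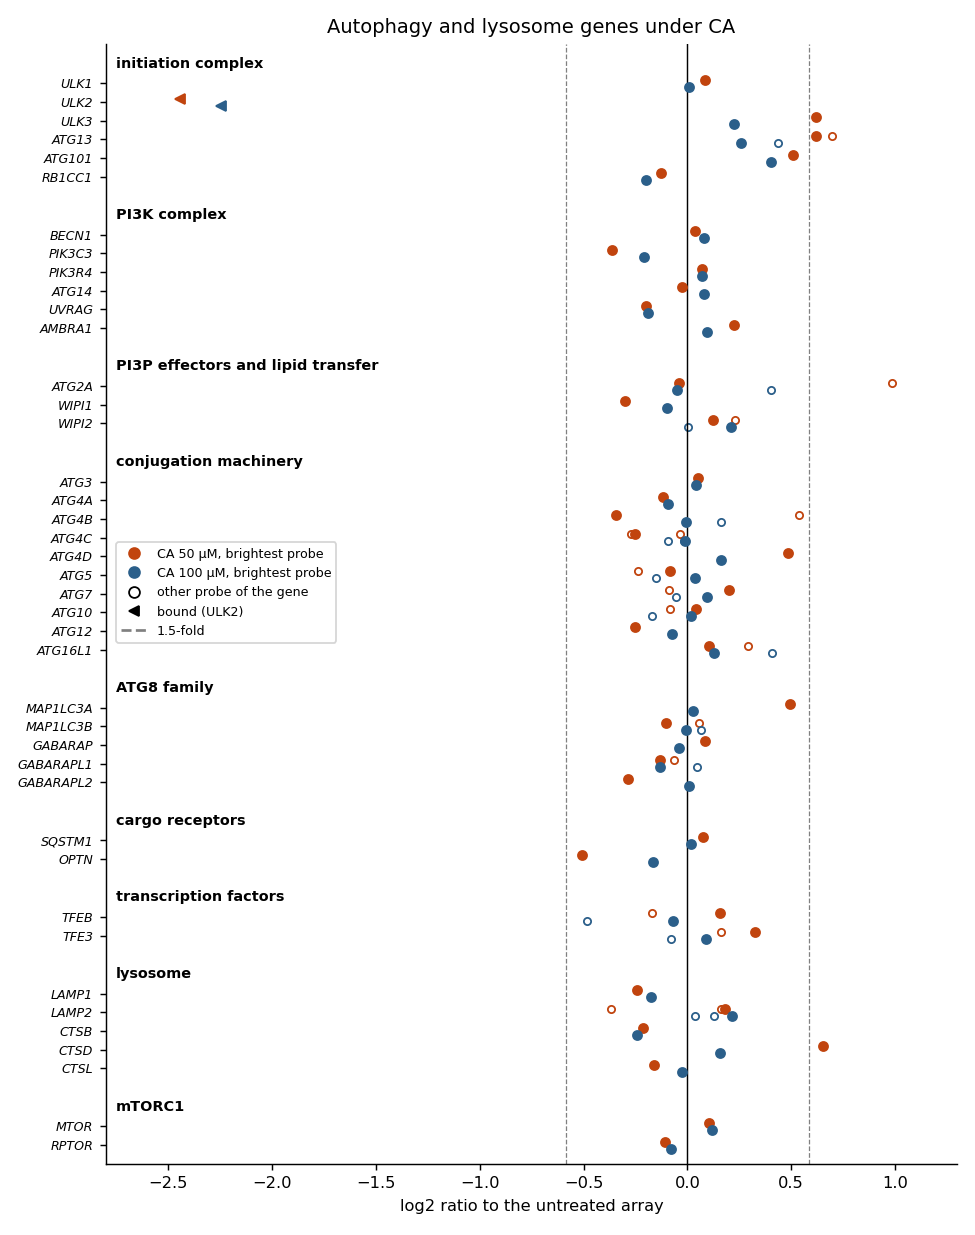
Log2 ratio of each member to the untreated array (horizontal axis), by role, for 50 μM (orange) and 100 μM (blue). Filled circles are the brightest probe of a gene, open circles its other probes above background on both arrays, triangles the bounds for ULK2, and dashed lines 1.5-fold. ULK3, ATG13 and CTSD lie past the upper line at 50 μM by their brightest probe, and no filled circle lies past a line at 100 μM.

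**Figure D2:**
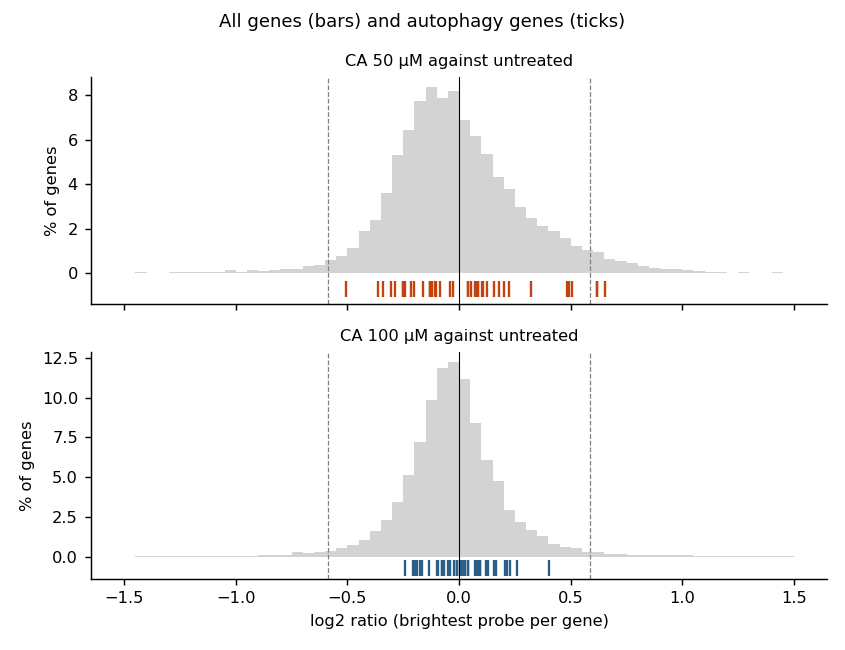
Distribution of log2 ratios to the untreated array over all genes (grey bars, percent of genes per bin of the horizontal axis) with the 40 measured members as ticks below the bars, for 50 μM (upper) and 100 μM (lower). Dashed lines mark 1.5-fold. The members spread over the body of the distribution, from -0.51 to 0.65 in the upper panel and from -0.24 to 0.40 in the lower.

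Read against the spots rather than by size, more members stood apart. At 50 μM 12 members were higher and 13 lower by over 2 spot SDs of their signal class, beside 24.5% and 33.5% of all genes, and 15 lay within that range. At 100 μM 8 were higher, beside 16.1%, and 7 lower, beside 25% of all genes, with 25 within the range. Between the doses 9 members were higher at 100 μM, beside 21.7% of all genes, and 9 lower, beside 23.2%. The spots of 1 array do not measure the spread between cultures, so that these counts describe the arrays and not the treatment.

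The genes listed with the initiation complex included 2 of the 3 members past 1.5-fold, ULK3 and ATG13. Both fell below 1.5-fold under quantile normalization, cyclic loess, median centring, normexp and the deposited table. ULK1, the kinase that starts autophagosome formation, had a relative signal of 180% on the untreated array, 191% on the 50 μM array and 181% on the 100 μM array. Its log2 ratios of 0.09 and 0.0091 were within 2 spot SDs of 0. ULK3, a related kinase listed here though not a subunit of the ULK1 complex, gave 25.4%, 39.0% and 29.7% in the same order. The 50 μM array was the highest, with a log2 ratio to untreated of 0.62 (1.54-fold), and the 100 μM array lay between with 0.23. ATG13, the adaptor that links ULK1 to the rest of its complex, was read by 2 probes. The brighter gave 31.8%, 48.8% and 38.0%, or log2 ratios of 0.62 and 0.26, and its spot on the 100 μM array lay in a disturbed area. The dimmer gave 6.65%, 10.8% and 9.0%, or 0.70 and 0.44. Both probes of ATG13 placed the arrays in the same order. ATG101, which binds and stabilises ATG13, gave 37.1%, 52.7% and 49.0%, with log2 ratios of 0.51 at 50 μM and 0.40 at 100 μM. RB1CC1, the scaffold of the ULK1 complex also known as FIP200, gave 94.8%, 86.7% and 82.5%, or -0.13 and -0.20. At 50 μM RB1CC1 lay within 2 spot SDs of 0, and its only spot on the 100 μM array lay in a disturbed area. Over the 5 measured genes of this list, ULK3 included, the median log2 ratio was 0.51 at 50 μM and 0.23 at 100 μM, beside -0.04 and -0.03 over all genes. At each dose 4 were above 0, beside 43.7% and 42.3% of all genes, but ULK1 at 100 μM became -0.0111 with median centring. In RNA of whole cultures, less transcript in each cell and fewer cells that carry it cannot be told apart.

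ULK2, the close relative of ULK1, is given apart because the study named it from these same arrays, so its values are a description only. It had 3 probes of 1 spot each. The first gave a processed signal of 59.7 intensity units on the untreated array, where it was well above background, and 2.85 and 12 on the 50 μM and 100 μM arrays, where it was not. The second gave 12, 9.2 and 3.5 units and the last 2.88, 2.95 and 3.27, and neither was well above background on any array. Thus 1 spot of 9 carried a measurable ULK2 signal. With the dim arrays set to their lowest probe well above background (12.5 and 14.8 units) and all arrays scaled, that probe was at least 5.43-fold lower at 50 μM and at least 4.74-fold lower at 100 μM than on the untreated array. The bright spot lay in one of the few disturbed areas of the untreated array. Of 36 other spots around it whose probes were dim on both other arrays, 10 were bright there, while 0 of 24 were bright around the same position on each CA array. With disturbed areas left out, no array held a ULK2 signal well above background, and no bound could be formed. Its other 2 probes gave no measure of ULK2 in either direction.

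**Figure D3:**
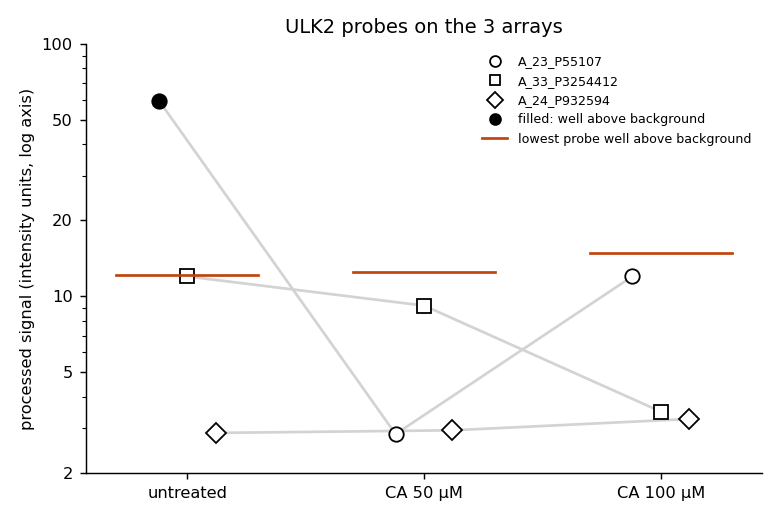
Processed signal in intensity units (vertical axis, log scale) of the 3 ULK2 probes on the 3 arrays. Filled symbols are well above background, grey lines join the values of 1 probe, and the orange bars give the lowest signal of any probe well above background on that array. A single value, 59.7 units on the untreated array, is filled.

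The 6 genes of the lipid kinase complex and its partners had log2 ratios between -0.36 and 0.23 at 50 μM and between -0.21 and 0.09 at 100 μM. At 50 μM 1 was higher and 2 lower by over 2 spot SDs, beside 24.5% and 33.5% of all genes. At 100 μM 0 were higher and 2 lower, beside 16.1% and 25%. BECN1, the core subunit, gave 276.5%, 284% and 293% on the untreated, 50 μM and 100 μM arrays, with log2 ratios of 0.04 and 0.08. PIK3C3, the catalytic subunit also known as VPS34, gave 136%, 106% and 118%. Its log2 ratios of -0.36 and -0.21 were the lowest of the complex at each dose. PIK3R4, ATG14, UVRAG and AMBRA1, which regulate or target the kinase, lay between -0.20 and 0.23 at 50 μM and between -0.19 and 0.09 at 100 μM. The median over the 6 members was 0.0058 and 0.08. Among the genes that act on the lipid mark and feed the membrane, WIPI1 gave 445%, 361% and 415.5%, lower on both CA arrays at -0.30 and -0.10. WIPI2, which recruits the conjugation machinery, was higher by both probes at 50 μM (0.12 and 0.23) and by 0.21 and 0.00099 at 100 μM.

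ATG2A, a lipid transfer protein, showed the largest disagreement between probes of a member. Its brighter probe gave 219.9%, 214% and 212%, or log2 ratios of -0.04 and -0.05. Its dimmer probe gave 6.21%, 12.3% and 8.20%, or 0.99 and 0.40. The log2 ratio at 50 μM thus differed by 1.03 between both probes of this gene, and the spot of the brighter probe on the 100 μM array lay in a disturbed area.

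The 10 genes that join ATG12 to ATG5 and ATG8 proteins to lipid had a median log2 ratio of -0.02 at 50 μM and 0.03 at 100 μM, with 5 and 6 above 0. By the brightest probe, 0 of 10 passed 1.5-fold at either dose. The activating enzyme ATG7 gave 63.0%, 72.4% and 67.2%, or 0.20 and 0.09 for its brighter probe, with -0.09 and -0.05 for the other. ATG3, which carries ATG8 proteins to the lipid, gave 0.05 and 0.04. The cysteine proteases of the ATG4 family, which trim ATG8 proteins, did not share a direction. ATG4B gave 243.5%, 192% and 242% by its brighter probe, lower at 50 μM alone with a log2 ratio of -0.34, and -0.0074 at 100 μM. Its dimmer probe, listed for another transcript variant, gave 10.5%, 15.3% and 11.8%, or 0.54 and 0.16, so that the direction at 50 μM depended on the probe. ATG4A lay at -0.12 and -0.09. ATG4C gave -0.25 and -0.01 by its brightest probe, and its other probes between -0.27 and -0.01.

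ATG4D and ATG5 were each printed in 10 spots, and these are the members with a measured error. ATG4D gave 7.08% ± 0.75 (SD, 10 spots) on the untreated array, 9.89% ± 0.99 (SD, 10 spots) on the 50 μM array and 7.92% ± 0.66 (SD, 10 spots) on the 100 μM array. Compared spot by spot, its log2 ratio was 0.48 ± 0.10 at 50 μM and 0.16 ± 0.096 at 100 μM, and all 10 spots were higher than untreated at each dose. With normexp background correction these ratios were 0.20 and 0.02. The 50 μM spots, from 8.27% to 11.9%, did not overlap the untreated ones, from 5.37% to 7.70%, while the 100 μM spots from 6.28% to 8.54% overlapped both. How often spots of 2 arrays part in this way over all probes printed 10 times was not counted. Of all genes 24.5% were higher by over 2 spot SDs at 50 μM. ATG5, the acceptor of ATG12, gave 537% ± 10.5 (SD, 9 spots without an outlier flag), 506% ± 16.4 (SD, 10 spots) and 551% ± 16.3 (SD, 10 spots). Its log2 ratio was -0.09 ± 0.065 at 50 μM over 9 spot positions, of which 8 were lower, and 0.03 ± 0.040 at 100 μM, with 8 of 9 higher. Of the 10 spots on the 100 μM array 2 lay in disturbed areas, and without them that ratio was 0.05. The ATG5 spots of the 50 μM and untreated arrays overlapped, and the ratio lay within 2 spot SDs of 0. The second ATG5 probe gave -0.24 and -0.15. ATG12 gave 194%, 163% and 184% by its brighter probe, or -0.25 and -0.08, and its dimmer probe was above background on the 100 μM array only, at least 1.08-fold higher than untreated. ATG16L1, which places the conjugating complex on the membrane, was higher by both probes and at both doses (0.10 and 0.29, then 0.13 and 0.41), and ATG10 lay within 0.04 of 0 by its brighter probe.

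**Figure D4:**
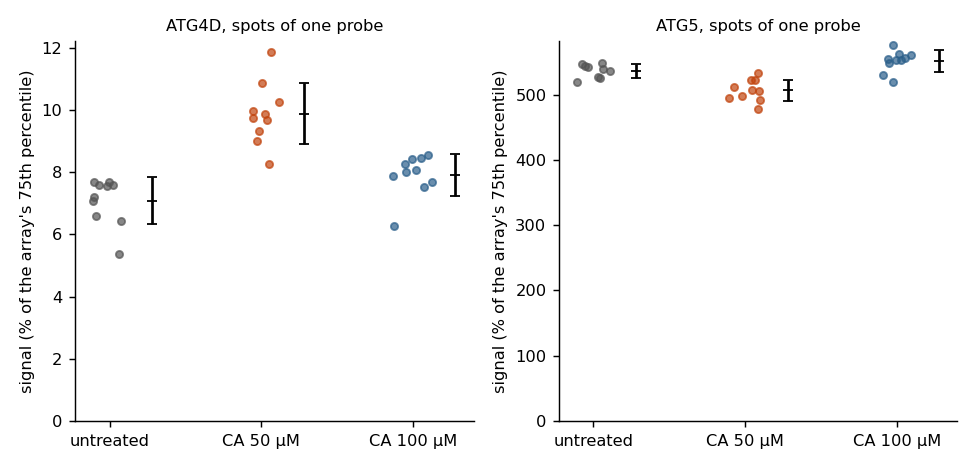
Relative signal of every spot of the ATG4D probe (left) and of the 10-spot ATG5 probe (right) on the 3 arrays, in percent of the array's 75th percentile. Bars give mean ± SD over spots of 1 array, which is technical error. The ATG4D spots of 50 μM lie above all untreated spots, and the ATG5 means are 537%, 506% and 551%. How often other probes part in this way was not counted.

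The ATG8 family forms the coat of the autophagosome membrane, and MAP1LC3B, or LC3, is the usual marker of autophagy. MAP1LC3B gave 349%, 325% and 347% on the untreated, 50 μM and 100 μM arrays, with log2 ratios of -0.10 and -0.0079 by the brighter probe and 0.05 and 0.07 by the other. GABARAP gave 1127%, 1194% and 1096%, or 0.08 and -0.04. Both transcripts differed from the untreated array by 0.10 or less by every probe. GABARAPL1 gave 309%, 282% and 281%, or -0.13 at both doses, and its other probe -0.07 and 0.04. GABARAPL2 gave 385%, 316% and 387%, so that the 50 μM array alone was lower, at -0.29, with 0.0092 at 100 μM. MAP1LC3A, with a dim probe, gave 4.35%, 6.13% and 4.43%, higher at 50 μM alone at 0.49, with 0.03 at 100 μM. For this probe, in the class with a spot SD of 0.13, normexp background correction gave 0.15 at 50 μM. The family median was -0.10 at 50 μM and -0.0079 at 100 μM. Of the cargo receptors, SQSTM1, or p62, which tethers ubiquitin-marked cargo to ATG8 proteins, gave 478%, 503% and 484%, or 0.07 and 0.02, both within 2 spot SDs of 0. OPTN, a receptor for damaged mitochondria and bacteria, gave 145.5%, 102% and 130%. It was the lowest measured member at 50 μM with -0.51, and lay at -0.17 at 100 μM.

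The transcription factors TFEB and TFE3 were both higher than untreated by over 2 spot SDs at 50 μM and within that range at 100 μM by their brightest probes. Their known regulation is largely by movement between cytoplasm and nucleus, which arrays do not measure. TFEB gave 77.2%, 85.9% and 73.6% by its brighter probe, or 0.15 and -0.07, and 39.4%, 35.0% and 28.2% by its dimmer probe, or -0.17 and -0.48. Its probes therefore disagreed in direction at 50 μM, and the -0.48 of the dimmer probe was beyond 2 spot SDs at 100 μM. TFE3 gave 197%, 247% and 210% by its brighter probe, or 0.32 and 0.09, and 77.2%, 86.3% and 73.1% by its dimmer probe, or 0.16 and -0.08. At 50 μM both TFE3 probes were higher than untreated, and at 100 μM they lay on either side of 0. The brighter TFEB probe and the dimmer TFE3 probe gave nearly the same ratios, and whether they read separate targets was not tested.

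Both factors bind the CLEAR element, which was searched as the E-box CACGTG with the letters GT before it and AC after it. Promoters from RefSeq (GRCh38.p14, 250 bases before to 50 after the start) were found for 36 members, and both motifs read the same on either strand. The full element occurred in 0 of 36 members, in 104 of 27305 promoters of all genes (0.381%) and in 7 of 96 promoters of a wider list of lysosomal and autophagy genes. The E-box core, which every full element contains, occurred in 5 of 36 members, in 7.43% of all promoters and in 23 of 96 of the wider list. The following 30-base stretches show the core in capitals for the 5 members, because these promoters carry the letters that such factors read while their transcripts lay on both sides of 0. They stand at chr15:74843311-74843340 (minus strand) for ULK3, chr11:1763957-1763986 (minus) for CTSD, chr3:112561963-112561992 (minus) for ATG3, chr14:55411834-55411863 (minus) for ATG14 and chr13:113297199-113297228 (plus) for LAMP1, whose promoter held 6 such cores.
ULK3: cctccgtatcccCACGTGggccctgcagga
CTSD: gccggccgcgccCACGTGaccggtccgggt
ATG3: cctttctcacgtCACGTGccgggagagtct
ATG14: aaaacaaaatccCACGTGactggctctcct
LAMP1: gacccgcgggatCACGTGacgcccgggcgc
At 50 μM the log2 ratios of these genes were 0.62 for ULK3, 0.65 for CTSD, 0.05 for ATG3, -0.03 for ATG14 and -0.24 for LAMP1. At 100 μM they were 0.23, 0.16, 0.04, 0.08 and -0.17 in the same order. A match of letters is not evidence of a bound factor.

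The lysosomal members differed in direction at 50 μM. CTSD, the aspartic protease cathepsin D, gave 60.3%, 94.9% and 67.2% on the untreated, 50 μM and 100 μM arrays. With a log2 ratio of 0.65 (1.57-fold) it was the highest measured member at 50 μM, and it lay at 0.16 at 100 μM. The cysteine proteases cathepsin B and cathepsin L went the other way. CTSB gave 366%, 316% and 310%, or -0.21 and -0.24, and CTSL gave 342%, 306% and 336.5%, or -0.16 and -0.02. LAMP1, a major protein of the lysosomal membrane, gave 1718%, 1451% and 1524%, lower on both CA arrays at -0.24 and -0.17. LAMP2, which is needed for fusion of autophagosomes with lysosomes, had probes listed under the transcripts of its spliced variants A, B and C. Which variants each probe binds was not tested. The variant C probe gave 154%, 175% and 179%, or 0.18 and 0.21, and the variant B probe 86.8%, 97.3% and 94.9%, or 0.16 and 0.13. The variant A probe, for the receptor of chaperone-mediated autophagy, gave 115%, 88.8% and 117.5%, or -0.37 and 0.04. The probes thus lay on both sides of the untreated array at 50 μM and on 1 side at 100 μM. The median over the 5 lysosomal members was -0.16 and -0.02.

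The mTORC1 kinase blocks autophagy when nutrients are plentiful. MTOR, the catalytic subunit, gave 126%, 136% and 137%, with log2 ratios of 0.11 and 0.12. RPTOR, which presents substrates to it, gave 139%, 129% and 131%, or -0.11 and -0.08. At 50 μM both lay within 2 spot SDs of 0, and at 100 μM MTOR was higher by over 2 spot SDs and RPTOR within them.

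A wider list of 128 other genes of the pathway (V-ATPase subunits, hydrolases, lysosomal membrane and transport proteins, further autophagy factors and cargo receptors, nutrient sensing) gave the setting of the members. At 50 μM its median over 124 measured genes was -0.11, with 44 above 0, 1 gene at least 2-fold higher and 1 at least 2-fold lower, beside 0.463% and 0.517% of all genes. With normexp neither passed 2-fold. The first was AKT1S1, or PRAS40, an inhibitor of mTORC1, with 12.9%, 27.5% and 18.6% on the untreated, 50 μM and 100 μM arrays (2.13-fold, log2 ratio 1.09). The second was MITF, a relative of TFEB, with 2.58%, 1.26% and 1.73% (log2 ratio -1.04). Its 15.2 intensity units on the 50 μM array lay near the 12.5 units of the lowest probe well above background there. For AKT1S1 and for MITF, each read by 1 probe in the dimmest class, the 100 μM array lay between the others. In all 6 genes of the wider list were at least 1.5-fold higher and 2 lower at 50 μM, beside 4.15% and 2.17% of all genes. These counts became 3 and 2 with quantile normalization, cyclic loess or the deposited table, and 2 and 0 with normexp. At 100 μM 1 of 123 was higher and 2 lower, beside 1.65% and 1.54%, and 0 with normexp, and the median was -0.05. Those at 100 μM were the calcium channel MCOLN1 (0.99, its spot in a disturbed area), the cystine transporter CTNS (-0.61) and FNIP1 (-0.72), named after their values were seen. The 15 measured V-ATPase subunits, which acidify the lysosome, had medians of -0.03 and -0.04. The hydrolases had medians of -0.08 (36 genes) and -0.03 (35 genes). A further 10 genes were listed as cargo receptors, the kinase TBK1 among them. Of these 1 was above 0 at 50 μM and 0 at 100 μM by the brightest probe, beside 43.7% and 42.3% of all genes. Their medians were -0.15 and -0.10. Of the 10 genes 7 and 5 were lower by over 2 spot SDs, beside 33.5% and 25% of all genes. Several of these genes were bright, and in the brightest of 4 classes of all genes the medians were -0.11 and -0.06. Not every group of the wider list is given here, so a direction shared by these genes is a description only. Second probes went the other way for TOLLIP (0.24) and NCOA4 (0.19) at 50 μM, and for TOLLIP (0.07), NCOA4 (0.35) and BNIP3L (0.17) at 100 μM.

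Ordered by array, the 100 μM array lay between the other arrays for 25 of 40 members, beside 53.7% of all genes, and the 50 μM array for 10, beside 23.1%. The untreated array was the highest for 16 members, beside 45.3% of all genes, and the lowest for 19, beside 31.5%. The 50 μM array was the highest for 15, beside 35.1%, and the lowest for 15, beside 41.8%. ULK3, ATG13, ATG101, ATG4D and CTSD all had the order untreated, 100 μM, 50 μM from low to high, and OPTN and PIK3C3 had the reverse. These genes are named here for their large ratios at 50 μM, and such a choice by itself tends to place that array at an end. The share of all genes with either order was not counted, so the order is a description only.

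The size of a ratio at 50 μM went with the brightness of the probe. Over all genes 7.7% of the dimmest of 4 classes of equal size were at least 1.5-fold higher, and 6.15%, 2.12% and 0.626% of the following classes, while the medians were 0.01, 0.02, -0.04 and -0.11. These classes divide all measured genes, unlike those of the spot SD, which divide the probes printed 10 times. ULK3 and ATG13 were in the second class and CTSD in the next. By class, from dim to bright, the members numbered 3, 8, 14 and 15, with medians of 0.48, 0.02, 0.11 and -0.10. The dimmer probe of a gene had the higher ratio in 68.1% of 3266 genes with several probes, and in 7 of 14 such members. The median gap between the probes of a gene was 0.17 for the 14 members and 0.25 over all such genes. A gap over 0.3 was found for 4 members (ATG2A, ATG4B, TFEB and LAMP2), beside 42.6% of all genes with several probes. The part of brightness in the results was not tested.

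**Figure D5:**
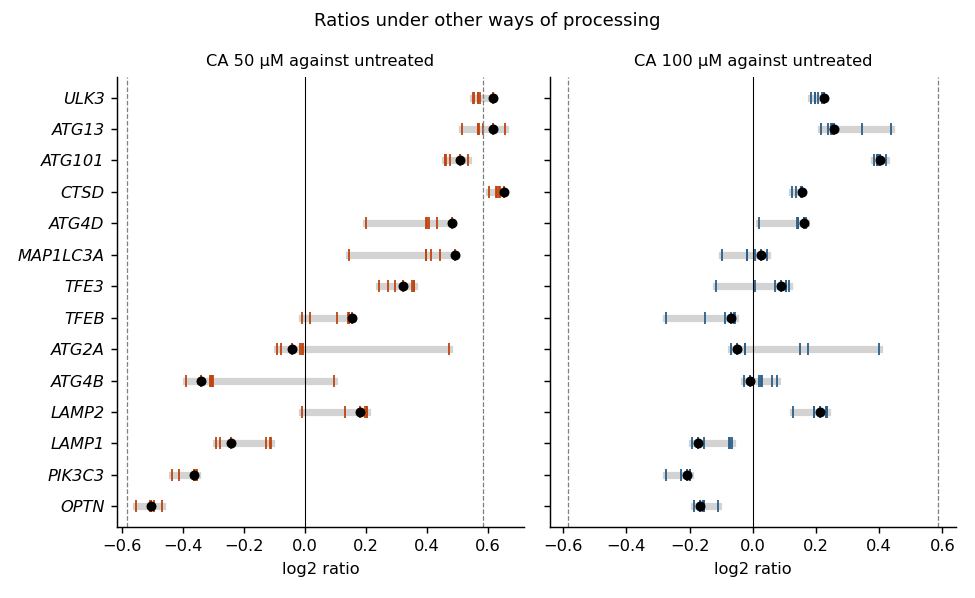
Log2 ratio to the untreated array (horizontal axis) of 14 members under 10 other ways of processing (coloured ticks) and as reported (black), with the range in grey and 1.5-fold as dashed lines, for 50 μM (left) and 100 μM (right). CTSD stays past 1.5-fold at 50 μM in each of them at 0.60 or more, ULK3 and ATG13 reach down to 0.55 and 0.52, and TFEB, ATG2A, ATG4B and LAMP2 cross 0. Several of these ways cannot change a gene with 1 probe, such as CTSD.

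Of the 3 members past 1.5-fold at 50 μM, only CTSD stayed past it under all 10 alternatives run. Not all of these are separate checks. For a member with 1 probe outside disturbed areas, such as CTSD or ULK3, several return the reported value by construction. These are both changes of the filter, the mean over probes, and leaving out saturated spots or disturbed areas. Median centring shifts all genes alike. ULK3 lay between 0.55 and 0.62 and ATG13 between 0.52 and 0.66 (log2), above 0 in each. The direction at 50 μM was kept under all 10 for 33 of 40 members, 17 higher and 16 lower. The exceptions were BECN1, ATG14, ATG2A, ATG4B, ATG10, TFEB and LAMP2. At 100 μM the direction was kept for 28 of 40 members, 15 higher and 13 lower. RB1CC1 was measured under 9 of the alternatives at 100 μM.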

How the data were processed

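Per the labels and the study's methods, total RNA was amplified, labelled with Cy3 and hybridised to 1 Agilent whole human genome array per group. The authors extracted spot intensity values with Agilent Feature Extraction 11.0.1.1. The deposited processed signal is background-subtracted and detrended within an array, but not scaled between arrays. A log2 table deposited by the authors has the same quartiles in each column (method not given in the sources used here) and served as an alternative. Groups followed the treatment label.

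Here log2 of the processed signal minus that of the array's 75th percentile over gene spots was used, without control spots and spots with an outlier flag (429, 569 and 596 removed from the untreated, the 50 μM and the 100 μM array). Spots of a probe were averaged. A probe passed as well above background with 50% or more of its spots flagged so, and a gene was read by its brightest probe well above background on both arrays. Accessions named 25771 of 34127 probes (75.5%) through RefSeq names. Since the array was annotated on an older build, no probe coordinates are given. An area of 17 rows by 7 columns of spots counted as disturbed with 5 or more spots, and 25% or more of those dim on the other arrays, brighter by 4-fold or more. For bounds, the dim array was set to the dimmest of its probes that stood well above background. The 2-fold and 1.5-fold rules (log2 0.58 for the latter) describe size and are not tests. The number of arrays limits the precision.

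The members, the wider list and the rules were chosen with earlier results of these data known. Named in full were the ULK kinases, the ATG8 family, SQSTM1, TFEB, TFE3, the LAMP and cathepsin genes, MTOR, RPTOR, members past 1.5-fold or with discordant probes, and genes of the wider list past 2-fold. Other members are given by range or were named after their values were seen. Alternatives were quantile normalization, cyclic loess, median centring, normexp (offset 50, on median spot and local background intensities and without spots with background flags), the deposited table, a filter on 1 array, no filter, the mean over probes, and leaving out saturated spots or disturbed areas. The steps were run on simulated data with 4-fold changes in 200 genes and noise between spots only, and 200 were recovered by the 2-fold rule. Smaller changes and the spread between cultures were not simulated, so this run does not show how well such changes are found. The tools were R 4.3.3 with limma 3.58.1, and Python 3.11.15 with pandas 2.3.3, numpy 2.4.6 and matplotlib 3.10.9.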

Additional observations from a re-analysis of the deposited data

How the results depend on the processing

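No paired analysis was possible because each group had 1 array, and for the same reason no replicate could be left out. With a background filter on 1 array, and with no filter, the count of members at least 2-fold different became 1 at 50 μM and 1 at 100 μM (ULK2, lower), and that at 1.5-fold 1 at 100 μM. Without a filter ULK2 also made the count between the doses 1 at 2-fold and 1 at 1.5-fold (higher at 100 μM). These values of ULK2 rest on spots not well above background. The count at 1.5-fold and 50 μM became 1 (CTSD) under quantile normalization, cyclic loess, median centring, normexp and the deposited table. Leaving out disturbed areas made the count between the doses 1 at 1.5-fold (ATG2A, -0.59), since the dimmer probe then stood in for the brighter and 39 members were measured. The medians over members and the ULK2 bounds (5.11-fold at 50 μM with the floor at the lowest single spot) moved by less than 1 spot SD, the counts of members above background and the spot spread by at most 1.5 times, and leaving out saturated spots changed no count. No member ratio past 1.5-fold changed sign. Over all genes at 50 μM, 1.5-fold counts of 610 higher and 319 lower became 212 and 132 with normexp and 1414 and 1198 with no filter, and at 100 μM 242 and 226 became 31 and 59, and 1091 and 1209. With disturbed areas left out the 2-fold counts at 100 μM went from 67 and 30 to 26 and 29. The cause of these differences was not tested.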

Other observations

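The brighter TFEB probe and the dimmer TFE3 probe, which are listed for different genes, gave nearly the same ratios in every comparison. Against the untreated array the TFEB probe had log2 ratios of 0.15 at 50 μM and -0.07 at 100 μM, and the TFE3 probe 0.16 and -0.08. Between the doses the values were -0.22 and -0.24. The other probe of TFEB gave -0.17 and -0.48 against untreated, and the other probe of TFE3 0.32 and 0.09. The probe sequences were not used here, so a target shared by both probes was not tested.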
